A study of Mus musculus with 8 samples.

Results

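Interferon-stimulated effector genes encode the proteins that carry out the antiviral state of a cell. The 45 described here, in 9 classes by known function, were chosen by symbol from the deposited table of all genes, which has 24054 rows, and all 45 had a row. DC2.4 is an immortalised line of dendritic cells derived from C57BL/6 bone marrow, and RNA was sequenced from 8 libraries of it. The untreated group, HDM (house dust mite extract), Grass (timothy grass extract) and Cat (cat hair extract) held 2 libraries each, numbered 1 and 2 in the labels. All cells were first starved for 4 h in RPMI with 0.1% FBS, and treated cells then received 250 PNU/ml of the extract for 4 h. The labels name no vehicle for the untreated cells, and all groups are 1 line from 1 mouse strain. Untreated cells are listed with 0 h of exposure, and their time of harvest is not listed. Time in low serum may therefore differ between untreated and treated cells, and its part in the results was not tested. Nothing beyond the design text, which calls the 2 samples of a condition independent, says how the replicates were made, so the tests speak only of the spread among these 8 libraries.

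Type I interferon binds a receptor at the cell surface, and the signal passes through kinases to the nucleus. There a short element in the promoters of many antiviral genes is bound and their transcription rises. Unstimulated myeloid cells keep many of these genes at a low tonic level. The effectors act at every step of a viral life cycle, from blocking entry at membranes to binding viral RNA, halting translation, starving polymerases of nucleotides and holding new particles at the cell surface.

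The core of that element is GAAA, then 2 bases of any kind, then GAAA again. It was searched on both strands in RefSeq promoters of build GRCm38.p6, from 250 bases before to 50 after each annotated start, with overlapping matches counted. Of the 45 genes, 37 had a promoter in the table, and 14 of these (37.8%) held the core, against 1079 of all 27025 genes with a promoter (3.99%). Among genes tested here with a promoter, 335 of 8693 (3.85%) held it. The 5 promoters below are shown because they span the responses described further on. Those of Ifit1, Bst2, Ifitm3 and Ifitm2 hold the core and that of Trim25 does not. Each is written 5′ to 3′ on the strand of its gene, and capitals mark the core on either strand. Ifit1 lies at chr19:34640639-34640938 on the plus strand. Bst2 lies at chr8:71537423-71537722, Ifitm3 at chr7:141010695-141010994 and Ifitm2 at chr7:140955912-140956211, all on the minus strand. Trim25 lies at chr11:88999153-88999452 on the plus strand.
Ifit1: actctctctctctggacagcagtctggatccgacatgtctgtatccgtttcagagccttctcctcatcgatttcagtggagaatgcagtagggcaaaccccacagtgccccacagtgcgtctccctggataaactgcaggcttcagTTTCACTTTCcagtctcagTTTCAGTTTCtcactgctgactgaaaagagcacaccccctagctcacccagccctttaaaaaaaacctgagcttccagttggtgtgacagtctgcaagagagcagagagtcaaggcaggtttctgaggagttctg
Bst2: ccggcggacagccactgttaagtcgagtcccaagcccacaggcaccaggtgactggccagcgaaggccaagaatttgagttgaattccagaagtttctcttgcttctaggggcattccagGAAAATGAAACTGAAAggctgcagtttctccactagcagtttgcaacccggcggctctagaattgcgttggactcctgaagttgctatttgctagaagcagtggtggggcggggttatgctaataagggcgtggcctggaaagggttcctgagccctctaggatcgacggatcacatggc
Ifitm3: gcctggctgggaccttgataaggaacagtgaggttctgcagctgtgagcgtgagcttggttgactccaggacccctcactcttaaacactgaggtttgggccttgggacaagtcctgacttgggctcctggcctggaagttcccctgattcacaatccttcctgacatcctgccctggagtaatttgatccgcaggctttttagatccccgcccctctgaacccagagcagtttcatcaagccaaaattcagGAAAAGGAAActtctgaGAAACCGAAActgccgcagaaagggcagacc
Ifitm2: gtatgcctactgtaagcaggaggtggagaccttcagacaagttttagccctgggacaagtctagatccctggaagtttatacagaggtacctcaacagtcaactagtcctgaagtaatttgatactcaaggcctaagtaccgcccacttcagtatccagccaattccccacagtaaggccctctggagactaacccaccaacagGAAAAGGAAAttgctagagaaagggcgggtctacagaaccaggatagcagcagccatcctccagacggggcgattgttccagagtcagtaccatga
Trim25: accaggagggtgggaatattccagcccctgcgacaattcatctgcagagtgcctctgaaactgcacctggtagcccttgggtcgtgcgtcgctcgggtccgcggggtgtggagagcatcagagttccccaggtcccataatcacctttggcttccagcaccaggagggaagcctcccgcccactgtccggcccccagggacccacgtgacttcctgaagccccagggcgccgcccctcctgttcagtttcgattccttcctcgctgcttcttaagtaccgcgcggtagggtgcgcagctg
The Ifit1 promoter carried the core at 2 places on the opposite strand, beginning 104 and 85 bases before the start. In Bst2 both copies overlap and share their middle bases. In Ifitm3 both copies begin after the annotated start, and Ifitm2 carried a single copy. A match is a description of the letters and not evidence of binding.

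Depth was 31.94 to 43.32 M reads per library. The deposited values are reads scaled by 1 factor per library, so that the columns sum to 975215 to 1047501, with no correction for gene length. They are called values below, and levels are compared between libraries and not between genes. Genes with a value of at least 0.5 in at least 2 libraries were tested (11455), which left out Ifitm1 and kept 44 of the effectors. The myeloid markers Csf1r (491 to 523) and Spi1 (215 to 230) were high in every library. Of the dendritic markers, Cd74 stood at 182 to 208, Irf8 at 41.2 to 62.6 and Batf3 at 3.26 to 4.06. Itgax stood at 2.57 to 3.29 and Zbtb46 at 0.992 to 1.96. H2-Aa had at most 3 reads and Flt3 at most 4, so these last dendritic markers were near 0. Defining markers of other cell types were also near 0, with 0 reads of Cd3e (T cells) and Ncr1 (NK cells) and at most 5 of Cd79a (B cells), 1 of Epcam (epithelium) and 2 of Col1a1 (fibroblasts). Pecam1 (endothelium) stood at 0.88 to 1.1. Of 12 tested dendritic and myeloid markers, 3 were lower and 1 higher with HDM, 4 were lower with Grass and 4 with Cat. Of all genes, 21.9%, 25.4% and 13.6% were called lower and 9.22% higher with HDM. Irf8 (limma log2 fold change −0.53, −0.53 and −0.18, each SE 0.04) and Ptprc (−0.27, −0.34 and −0.27, each SE 0.03) were lower with every extract. The part of these markers in the results below was not tested. Fewer expressing cells and less RNA per cell cannot be told apart in these bulk libraries. The untreated libraries stood apart from each other over the effectors: untreated 2 was the higher in 41 of 44, against 55.2% of all genes tested, so counts are given with and without each of them.

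Effector transcripts were lower with every extract. With HDM 28 of 44 fell (limma, adjusted p under 0.05, adjusted over all genes tested), where 21.9% of all genes were called lower. With Grass 30 of 44 fell, against 25.4% of all genes. In the Cat comparison 25 of 44 fell, against 13.6% of all genes. The median log2 fold change over the effectors was −0.36, −0.35 and −0.37 in this order, and over all genes tested −0.03, −0.04 and −0.03. The 3 comparisons share both untreated libraries and are not independent of each other.

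No effector was called higher with an extract in the fit of all 8 libraries. The count was 0 of 44 by limma and by edgeR, and 0 by DESeq2. DESeq2 gave no adjusted p for Ifitm6 and Mx1 with Grass or Cat, nor for Mx2, Ddx60, Ifi44 and Ifi27l2a with Cat. By limma 0 effectors had an unadjusted p under 0.05 in that direction. Of all genes 9.22% were called higher with HDM, 10.4% with Grass and 4.34% with Cat. At an unadjusted p under 0.05, 35 effectors were lower with HDM, 34 with Grass and 35 with Cat, against 28%, 30.5% and 21.8% of all genes. The values of 37 of 44 effectors were lower in all 6 allergen libraries than in both untreated ones, against 25.2% of all genes, and 0 were higher in all 6, against 10.8%. Another scaling shifts every gene of a comparison alike, and so changes how many genes of each direction pass. Under TMM scaling 27, 27 and 24 effectors were lower and 14.6%, 16.9% and 9.55% of all genes, and the share of all HDM calls that were higher went from 29.6% to 47.0%, of Grass calls from 29.1% to 46.6% and of Cat calls from 24.1% to 41.1%. With upper-quartile scaling those shares were 65.2%, 64.8% and 55.7%, while 23, 27 and 23 effectors were lower and 0 higher.

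The count of lower effectors depended on single libraries. Leaving out a library changes the spread of every gene, and the share of all genes called in the same refits is not given here. The counts that follow thus have no background beside them. Without untreated 1 it was 39 with each extract, and without untreated 2 it came to 26, 30 and 30 for HDM, Grass and Cat, where the lone untreated library is assumed to vary like the other groups. It dropped to 18 with HDM when HDM 2 was left out and to 12 with Cat when Cat 2 was left out.

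**Figure D1:**
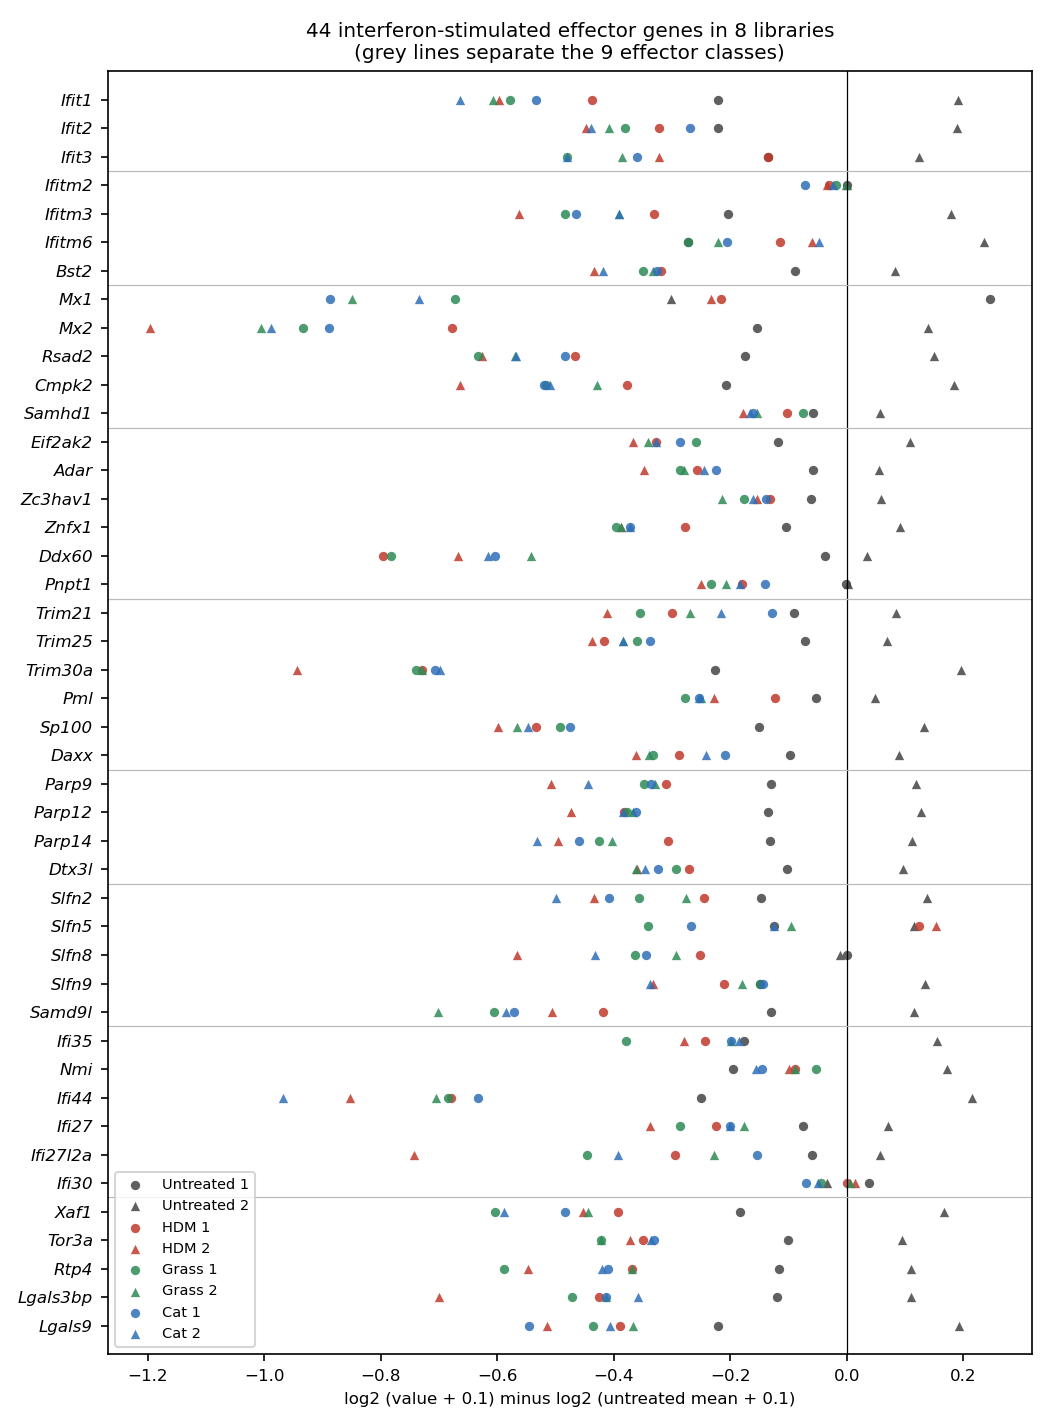
Position of every library for the 44 tested effectors, as log2 of the value plus 0.1 minus log2 of the untreated mean plus 0.1 (x axis), with 1 row per gene, circles for library 1 and triangles for library 2, and grey lines between the 9 classes. Nearly all coloured points lie left of both grey-black untreated points, and untreated 2 lies right of untreated 1 in 41 of 44 rows.

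The IFIT family binds viral RNA. Ifit1 holds RNA whose cap lacks methylation and so blocks its translation, and Ifit3 is its partner. Of 3 tested genes, 1 was called lower in the HDM comparison and 2 each in those of Grass and Cat. Counts of this and the other classes rest on few genes. Of all genes, 21.9%, 25.4% and 13.6% were called lower with HDM, Grass and Cat, and no class was tested against these shares. Values of Ifit1 were 19.9 and 26.5 in untreated libraries 1 and 2, 17.1 and 15.3 with HDM, 15.5 and 15.2 with Grass, and 16.0 and 14.6 with Cat. Untreated and allergen libraries did not overlap, and the untreated ones themselves differed by 0.41 on the log2 scale. The log2 fold change of Ifit1 was −0.50 with HDM (SE 0.12, adjusted p = 0.012), −0.58 with Grass (SE 0.12, adjusted p = 0.0053) and −0.58 with Cat (SE 0.12, adjusted p = 0.01). The HDM call ended without HDM 2 (−0.42, adjusted p = 0.085) and the Cat call without Cat 2 (−0.52, adjusted p = 0.10). Ifit3 stood at 13.1 and 15.7 untreated, 13.1 and 11.5 with HDM, 10.3 and 11 with Grass, and 11.2 and 10.3 with Cat. Its HDM libraries reached the lower untreated value, while those of Grass and Cat did not. Ifit3 fell with Grass (−0.42, SE 0.09, adjusted p = 0.00054) and Cat (−0.42, SE 0.09, adjusted p = 0.0015) and missed the threshold with HDM (−0.22, SE 0.09, adjusted p = 0.057). Ifit2, another RNA-binding member, had log2 fold changes of −0.37, −0.38 and −0.34 (each SE 0.16), none of them called. Ifit1 and Ifit3 are close copies of other mouse Ifit genes, so reads may have been split between them.

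The membrane restriction factors stop virus at the start or the end of its cycle. Bst2, or tetherin, holds budding particles at the cell surface, and IFITM proteins block fusion of incoming virus with the membrane of the cell. Of 4 tested members, Bst2 alone was called, with each extract. A count of 1 in 4 is near the share of all genes called lower with HDM (21.9%) and Grass (25.4%), and nothing is read from it. Bst2 had values of 69.8 and 78.6 untreated, 59.5 and 54.9 with HDM, 58.2 and 58.9 with Grass, and 59.2 and 55.5 with Cat. Its groups did not overlap, and the allergen libraries were close to each other. The log2 fold change of Bst2 was −0.37 with HDM (SE 0.05, adjusted p = 2.9e-05), −0.34 with Grass (SE 0.05, adjusted p = 6.5e-05) and −0.37 with Cat (SE 0.05, adjusted p = 9.5e-05).

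Ifitm3, the member best known for restricting influenza virus in endosomes, stood at 105 and 137 untreated, 96.2 and 81.9 with HDM, 86.5 and 92.2 with Grass, and 87.6 and 92.3 with Cat. Its groups did not overlap, yet the untreated libraries were 0.39 apart on the log2 scale. Its log2 fold changes of −0.44, −0.43 and −0.42 (each SE 0.16) did not pass the threshold (adjusted p = 0.13, 0.12 and 0.18), although they were larger than those of Bst2. DESeq2 called Ifitm3 with HDM and Grass (adjusted p = 0.032 and 0.027). Ifitm2 was nearly level, with 72.0 and 72.0 untreated, 70.5 and 70.3 with HDM, 71.1 and 71.9 with Grass, and 68.5 and 70.8 with Cat. The log2 fold changes of Ifitm2 were −0.03, −0.01 and −0.05 (each SE 0.04), and the sign of the first and second turned under TMM or upper-quartile scaling. Ifitm6 was low, at 0.836 and 1.23 untreated and 0.835 to 0.993 in the 6 allergen libraries, which all lay between the lowest and the highest untreated value or just under it. Ifitm1 had 1 and 0 reads untreated, 1 and 2 with HDM, 2 and 0 with Grass, and 2 and 1 with Cat, too few to compare. IFITM genes are close copies, so their values are uncertain where reads match several of them.

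The Mx GTPases form rings around viral nucleoproteins, and the enzymes of nucleotide metabolism act on the building blocks of viral genomes. Of 5 genes, 3, 4 and 3 fell with HDM, Grass and Cat, and the class median was −0.51, −0.59 and −0.52. Mx2 stood at 4.41 and 5.43 untreated, 3.04 and 2.09 with HDM, 2.53 and 2.4 with Grass, and 2.61 and 2.43 with Cat. The highest allergen library lay below the lowest untreated one by a factor of 1.45. Mx2 had log2 fold changes of −0.93 with HDM (SE 0.16, adjusted p = 0.0001), −0.96 with Grass (SE 0.16, adjusted p = 5.2e-05) and −0.93 with Cat (SE 0.16, adjusted p = 0.00026). Mx1, whose allele in C57BL/6 makes no functional protein, ran otherwise. Its values were 1.24 and 0.817 untreated, 0.873 and 0.861 with HDM, 0.609 and 0.527 with Grass, and 0.511 and 0.579 with Cat. The untreated order was the reverse of that in nearly all other effectors, and the HDM libraries lay between the untreated ones. Mx1 was called lower with Grass (−0.73, SE 0.27, adjusted p = 0.036) and Cat (−0.78, SE 0.27, adjusted p = 0.045) and not with HDM (−0.20, SE 0.27, adjusted p = 0.62). Both calls ended under each other scaling (adjusted p = 0.051 to 0.062), and without untreated 1 the values were −0.46 and −0.51 (adjusted p = 0.30 and 0.31). The Grass call also ended without either Grass library (adjusted p = 0.079 and 0.17), and the Cat call on leaving out any single allergen library (adjusted p = 0.057 to 0.19). Mx1 had 43 and 28 reads in the untreated libraries, and Mx1 and Mx2 share sequence.

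Samhd1, which breaks down deoxynucleotides and so limits reverse transcription, changed little in size. Values of Samhd1 were 265 and 287 untreated, 257 and 244 with HDM, 262 and 248 with Grass, and 247 and 246 with Cat. The highest allergen value was only 1.01 times below the lowest untreated value. Its log2 fold change was −0.14 with HDM (SE 0.04, adjusted p = 0.0063), −0.11 with Grass (SE 0.04, adjusted p = 0.021) and −0.16 with Cat (SE 0.04, adjusted p = 0.0034). Without untreated 2 Samhd1 changed by −0.08 with HDM and −0.05 with Grass (adjusted p = 0.079 and 0.25), and under upper-quartile scaling by −0.07 and −0.03 (adjusted p = 0.14 and 0.49). Its calls also ended without HDM 2 (−0.10, adjusted p = 0.12), Grass 2 (−0.07, adjusted p = 0.25) and Cat 2 (−0.16, adjusted p = 0.055), each in the comparison of that extract, and the Grass call under TMM scaling (−0.07, adjusted p = 0.12).

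Rsad2 (viperin), which turns CTP into a chain terminator for viral polymerases, and Cmpk2, a kinase that supplies its substrate, were chosen after their values were seen because they are neighbours on chromosome 12. Rsad2 stood at 89.5 and 112 untreated, 73.1 and 65.4 with HDM, 65.1 and 68.0 with Grass, and 72.2 and 68.1 with Cat. Cmpk2 stood at 53.4 and 70.1 untreated, 47.5 and 38.9 with HDM, 43.1 and 45.8 with Grass, and 43.0 and 43.3 with Cat. Both genes were lower in all 6 allergen libraries. Rsad2 was called with HDM (−0.54, SE 0.13, adjusted p = 0.043) and Grass (−0.59, SE 0.13, adjusted p = 0.028) but not with Cat (−0.52, SE 0.13, adjusted p = 0.07), where DESeq2 called it (adjusted p = 0.0012). Cmpk2 was called with none (−0.51, −0.46 and −0.50, each SE 0.17), though DESeq2 called it with each (adjusted p = 0.015, 0.023 and 0.022). The HDM call of Rsad2 ended under every other scaling (adjusted p = 0.051 to 0.058) and on leaving out any single allergen library (adjusted p = 0.082 to 0.16). With Grass, Rsad2 lost its call when any library of Grass or Cat was left out (adjusted p = 0.06 to 0.12).

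**Figure D2:**
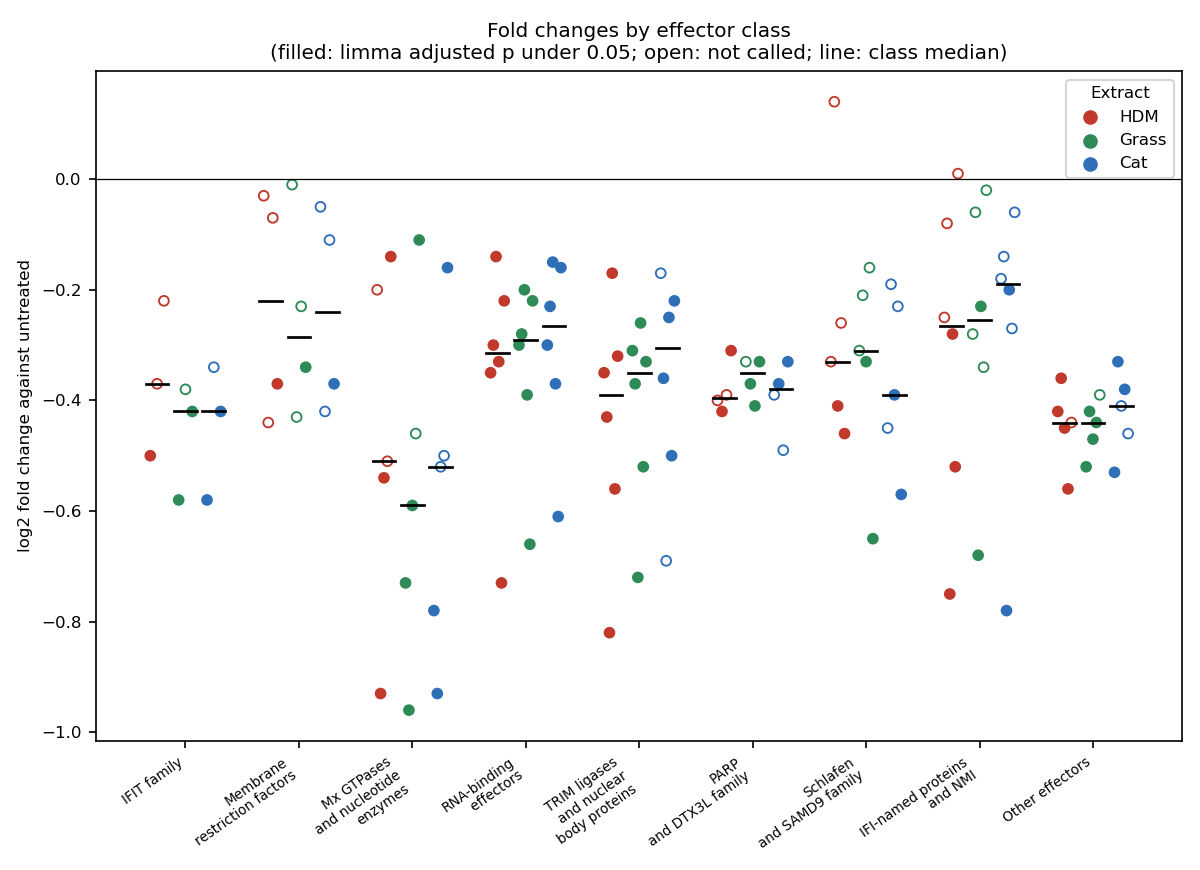
Log2 fold change against untreated (y axis) of each tested effector in its class (x axis), with HDM, Grass and Cat in red, green and blue, filled points for an adjusted p under 0.05, open points for genes not called, and lines for class medians. The medians of all 9 classes lie below 0 with every extract, and all 6 RNA-binding effectors are filled with every extract.

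The RNA-binding effectors recognise, edit or destroy foreign RNA, and all 6 were called lower in each comparison with untreated. The class medians were −0.31, −0.29 and −0.27. Adar, which edits adenosine to inosine in double-stranded RNA, stood at 394 and 426 untreated, 343 and 322 with HDM, 336 and 338 with Grass, and 351 and 346 with Cat. Every allergen library was well under both untreated ones. Adar had log2 fold changes of −0.30 with HDM (SE 0.03, adjusted p = 4.7e-07), −0.28 with Grass (SE 0.03, adjusted p = 1.2e-06) and −0.23 with Cat (SE 0.03, adjusted p = 5.6e-05). Pnpt1, a ribonuclease of mitochondria, gave 97.1 and 97.4 untreated, 85.8 and 81.7 with HDM, 82.7 and 84.2 with Grass, and 88.2 and 85.6 with Cat. Here the untreated libraries were level and the groups still did not overlap. Pnpt1 had log2 fold changes of −0.22 with HDM (SE 0.04, adjusted p = 3.8e-05), −0.22 with Grass (SE 0.04, adjusted p = 2.4e-05) and −0.16 with Cat (SE 0.04, adjusted p = 0.002), and the Cat call ended without Cat 2 (−0.14, adjusted p = 0.053).

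Ddx60, a helicase that aids RNA sensing, had the largest fall of this class and was named after its values were seen. It stood at 6.77 and 7.12 untreated, 3.96 and 4.34 with HDM, 4.00 and 4.74 with Grass, and 4.54 and 4.50 with Cat. The untreated libraries differed little, and all 6 others were lower by a factor of at least 1.43. Log2 fold changes of Ddx60 were −0.73 (SE 0.12, adjusted p = 3.4e-05), −0.66 (SE 0.12, adjusted p = 9.1e-05) and −0.61 (SE 0.12, adjusted p = 0.0007) with HDM, Grass and Cat. The other 3 genes had smaller changes. Eif2ak2 (PKR), the kinase that stops translation on double-stranded RNA, had −0.35, −0.30 and −0.30 (each SE 0.07). Znfx1, an RNA sensor at mitochondria, had −0.33, −0.39 and −0.37 (each SE 0.07), and Zc3hav1 (ZAP), which directs CpG-rich RNA to decay, −0.14, −0.20 and −0.15 (each SE 0.03). Calls of these 3 genes depended on single libraries. Eif2ak2 lost the call without HDM 2 (adjusted p = 0.069 with HDM), without Grass 2 (adjusted p = 0.085 with Grass) and, with Cat, on leaving out any library of HDM or Cat (adjusted p = 0.055 to 0.16). Znfx1 lost that with Cat without either Cat library (adjusted p = 0.072 and 0.08). Zc3hav1 without untreated 2 changed by −0.08 with HDM and −0.08 with Cat (adjusted p = 0.061 and 0.077), its Cat call also ended without Cat 2 (adjusted p = 0.06) and its HDM call under upper-quartile scaling (−0.07, adjusted p = 0.094).

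The TRIM ubiquitin ligases and the proteins of nuclear bodies fell in all 6 cases with HDM and with Grass and in 4 of 6 with Cat. Trim25, which ubiquitinates the RNA sensor RIG-I, had the smallest p of all the effectors. Its values were 447 and 493 untreated, 352 and 347 with HDM, 366 and 360 with Grass, and 372 and 360 with Cat. All 6 allergen libraries lay within a narrow band, 1.2 times or more below the lower untreated one. Trim25 had log2 fold changes of −0.43 with HDM (SE 0.03, adjusted p = 6.7e-09), −0.37 with Grass (SE 0.03, adjusted p = 4.5e-08) and −0.36 with Cat (SE 0.03, adjusted p = 5.9e-07). Daxx, a histone chaperone of PML nuclear bodies, stood at 77.6 and 88.3 untreated, 68.0 and 64.6 with HDM, 65.9 and 65.6 with Grass, and 71.8 and 70.2 with Cat. No allergen library of Daxx reached an untreated one, and those of Cat were nearest. Daxx had log2 fold changes of −0.32 with HDM (SE 0.05, adjusted p = 2.4e-05), −0.33 with Grass (SE 0.05, adjusted p = 1.2e-05) and −0.22 with Cat (SE 0.05, adjusted p = 0.0023), the last lost without Cat 2 (−0.21, adjusted p = 0.052).

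Sp100, another nuclear body protein, fell by more than its partners, with log2 fold changes of −0.56, −0.52 and −0.50 (each SE 0.07), and Pml, which builds these bodies, by less, with −0.17, −0.26 and −0.25 (each SE 0.04). The HDM call of Pml ended without untreated 2 (−0.12, adjusted p = 0.058), without HDM 2 (−0.12, adjusted p = 0.11) and under upper-quartile scaling (−0.10, adjusted p = 0.079). Trim21, a receptor for antibody-coated virus in the cytosol, fell with HDM (−0.35, SE 0.08) and Grass (−0.31, SE 0.08) and did not pass with Cat (−0.17, SE 0.08, adjusted p = 0.11). Trim30a, a mouse ligase with several close copies, was added after its values were seen. It stood at 45.1 and 60.5 untreated, 31.8 and 27.4 with HDM, 31.6 and 31.8 with Grass, and 32.3 and 32.5 with Cat. Its allergen libraries were tightly grouped and its untreated libraries 0.42 apart on the log2 scale. Trim30a fell with HDM (−0.82, SE 0.16, adjusted p = 0.022) and Grass (−0.72, SE 0.16, adjusted p = 0.028) and narrowly missed with Cat (−0.69, SE 0.16, adjusted p = 0.056). DESeq2 called it with Cat (adjusted p = 0.00033). The HDM call ended without HDM 2 (−0.71, adjusted p = 0.087) and on leaving out any library of Grass or Cat (adjusted p = 0.051 to 0.055), and that with Grass on leaving out any library of those 2 groups (adjusted p = 0.066 to 0.12).

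**Figure D3:**
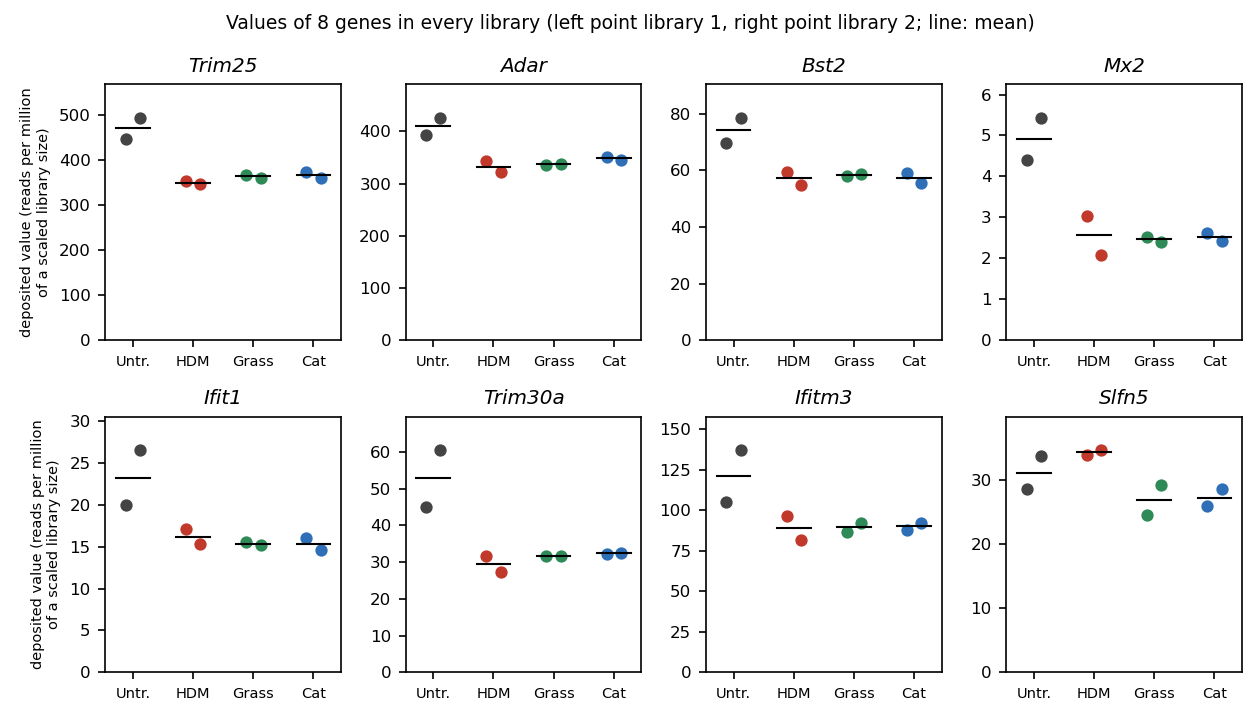
Deposited values (y axis, from 0) of 8 effectors in every library, by group (x axis), with library 1 at left and library 2 at right and a line at the mean. Trim25, Adar, Bst2, Mx2, Ifit1, Trim30a and Ifitm3 are lower in all 6 allergen libraries than in both untreated ones, while Slfn5 with HDM (34.0 and 34.7) lies at the level of untreated 2 (33.8).

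The PARP and DTX3L family attaches ADP-ribose or ubiquitin to proteins of infected cells. Dtx3l, a ligase that works as a complex with Parp9, stood at 94.1 and 108 untreated, 83.7 and 78.7 with HDM, 82.4 and 78.6 with Grass, and 80.7 and 79.4 with Cat. Parp12, which restricts several RNA viruses, stood at 87.5 and 105 untreated, 73.7 and 69.2 with HDM, 74.0 and 74.5 with Grass, and 74.8 and 73.6 with Cat. In both genes the allergen libraries were close together and did not reach the untreated ones. Dtx3l had log2 fold changes of −0.31, −0.33 and −0.33 (each SE 0.06, adjusted p = 0.0011, 0.00068 and 0.0015). Parp12 had −0.42, −0.37 and −0.37 (each SE 0.08, adjusted p = 0.0057, 0.0093 and 0.018), and its Grass call ended without either Grass library (adjusted p = 0.059 and 0.058), its Cat call without either Cat library (adjusted p = 0.09 and 0.12). Parp9 (−0.40, −0.33 and −0.39, each SE 0.11) was not called with any extract, though with HDM it lay at the threshold (adjusted p = 0.05) and was called under 8 alternatives (adjusted p = 0.0004 to 0.049). Parp14 (−0.39, −0.41 and −0.49, each SE 0.11) was called with Grass alone (adjusted p = 0.049), and that call ended under every other scaling (adjusted p = 0.062 to 0.078) and on leaving out any library of Grass or Cat (adjusted p = 0.085 to 0.17). DESeq2 called Parp14 with HDM and Cat as well (adjusted p = 0.0035 and 0.00025). Of the 4 genes, limma called 2 with HDM, 3 with Grass and 2 with Cat.

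Samd9l and the schlafens restrain translation and growth, and 2 of these 5 genes fell with each extract. Samd9l gave 86.1 and 102 untreated, 70.5 and 66.3 with HDM, 61.9 and 57.9 with Grass, and 63.4 and 62.8 with Cat. The Grass and Cat libraries were lower than those of HDM, which were in turn lower than the untreated ones. Samd9l had log2 fold changes of −0.46 with HDM (SE 0.08, adjusted p = 0.0038), −0.65 with Grass (SE 0.08, adjusted p = 0.0005) and −0.57 with Cat (SE 0.08, adjusted p = 0.0024). Slfn8 gave 12.4 and 12.3 untreated, 10.4 and 8.34 with HDM, 9.62 and 10.1 with Grass, and 9.74 and 9.16 with Cat. The untreated libraries were level and all others were lower. Slfn8 had log2 fold changes of −0.41 with HDM (SE 0.09, adjusted p = 0.0014), −0.33 with Grass (SE 0.09, adjusted p = 0.0067) and −0.39 with Cat (SE 0.09, adjusted p = 0.0039). Without HDM 2 the HDM value of Slfn8 was −0.25 (adjusted p = 0.082), without Grass 1 the Grass value was −0.29 (adjusted p = 0.073), and without Cat 2 the Cat value was −0.34 (adjusted p = 0.068). Slfn2 had −0.33, −0.31 and −0.45 (each SE 0.12) and Slfn9, a near copy of Slfn8, −0.26, −0.16 and −0.23 (each SE 0.10), none of them called by limma. DESeq2 called Slfn2 with each extract (adjusted p = 0.035, 0.041 and 0.0039).

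Slfn5 was singled out after its values were seen, since its HDM libraries did not lie below the untreated ones. It stood at 28.6 and 33.8 untreated, 34.0 and 34.7 with HDM, 24.6 and 29.2 with Grass, and 25.9 and 28.6 with Cat. The HDM libraries were above both untreated ones, and those of Grass and Cat lay at or below the level of untreated 1, save for 1 Grass library above it. Its log2 fold change was 0.14 with HDM (SE 0.10, adjusted p = 0.34), −0.21 with Grass (SE 0.10, adjusted p = 0.15) and −0.19 with Cat (SE 0.10, adjusted p = 0.25). Without untreated 2 Slfn5 was called higher with HDM (0.26, SE 0.08, adjusted p = 0.024), the only effector called higher against untreated under any alternative. It was called lower with Grass without untreated 1 (−0.33, adjusted p = 0.004) and without Grass 2 (−0.33, adjusted p = 0.011), and with Cat without untreated 1 (−0.31, adjusted p = 0.011).

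The IFI-named proteins and NMI are a mixed class, in which 3, 2 and 2 of the 6 fell with HDM, Grass and Cat. Of all genes, 21.9%, 25.4% and 13.6% were called lower, so the Grass count is not far from that share. Ifi44, an intracellular protein induced by interferon, stood at 6.51 and 9.02 untreated, 4.81 and 4.25 with HDM, 4.79 and 4.72 with Grass, and 4.97 and 3.92 with Cat. The untreated libraries were 0.46 apart on the log2 scale, and all allergen libraries were lower by a factor of at least 1.31. Ifi44 had log2 fold changes of −0.75 with HDM (SE 0.14, adjusted p = 0.00026), −0.68 with Grass (SE 0.14, adjusted p = 0.00057) and −0.78 with Cat (SE 0.14, adjusted p = 0.0004). Ifi27 stood at 132 and 146 untreated, 119 and 110 with HDM, 114 and 123 with Grass, and 121 and 121 with Cat. Its groups were apart by a factor of 1.07. Ifi27 had log2 fold changes of −0.28 with HDM (SE 0.05, adjusted p = 0.0025), −0.23 with Grass (SE 0.05, adjusted p = 0.0068) and −0.20 with Cat (SE 0.05, adjusted p = 0.03). The Cat call of Ifi27 ended without untreated 2 (−0.12, adjusted p = 0.068), without Cat 1 (adjusted p = 0.14), without Cat 2 (adjusted p = 0.16), under upper-quartile scaling (−0.15, adjusted p = 0.075) and by DESeq2 (adjusted p = 0.051).

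Its neighbour Ifi27l2a fell with HDM (−0.52, SE 0.14, adjusted p = 0.0069), a call that ended without HDM 2 (−0.29, adjusted p = 0.20) and by DESeq2 (adjusted p = 0.057), and was not called with Grass (−0.34) or Cat (−0.27). Ifi30, the lysosomal thiol reductase GILT of antigen processing, was chosen after its values were seen because it was nearly level, at 303 and 288 untreated, 295 and 298 with HDM, 286 and 296 with Grass, and 281 and 285 with Cat. Its groups overlapped, its log2 fold changes were 0.01, −0.02 and −0.06 (each SE 0.03), and the sign turned under other settings. Nmi and Ifi35 bind each other, and neither was called. Nmi had −0.08, −0.06 and −0.14 (each SE 0.09) and Ifi35 −0.25, −0.28 and −0.18 (each SE 0.11).

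The remaining 5 effectors fell in 4 cases with HDM, 4 with Grass and 3 with Cat. Tor3a, an ATPase of the endoplasmic reticulum, stood at 77.4 and 88.6 untreated, 65.1 and 64.1 with HDM, 61.9 and 61.9 with Grass, and 66.0 and 65.7 with Cat. Its replicates within each extract were nearly identical and all lay below the untreated ones. Tor3a had log2 fold changes of −0.36 with HDM (SE 0.05, adjusted p = 2.2e-06), −0.42 with Grass (SE 0.05, adjusted p = 1.9e-07) and −0.33 with Cat (SE 0.05, adjusted p = 2.3e-05). Lgals3bp, a secreted partner of galectins, stood at 31.3 and 36.7 untreated, 25.3 and 20.9 with HDM, 24.5 and 25.5 with Grass, and 25.5 and 26.5 with Cat. Its lowest library was HDM 2, and no allergen library reached the untreated values. Lgals3bp had log2 fold changes of −0.56 with HDM (SE 0.09, adjusted p = 0.0012), −0.44 with Grass (SE 0.09, adjusted p = 0.0043) and −0.38 with Cat (SE 0.09, adjusted p = 0.018), the last lost without either Cat library (adjusted p = 0.13 and 0.10). Xaf1, a promoter of apoptosis, had −0.42, −0.52 and −0.53 (each SE 0.10), all called. Its HDM call ended without either HDM library (adjusted p = 0.052 and 0.087) and its Cat call without Cat 2 (adjusted p = 0.069). Rtp4, which dampens interferon responses in mice, had −0.45, −0.47 and −0.41 (each SE 0.12) and was called with HDM and Grass. By DESeq2 it was also called with Cat (adjusted p = 0.0087). Rtp4 lost the HDM call without untreated 2 (−0.34, adjusted p = 0.059), HDM 2 (adjusted p = 0.094) or either Cat library (adjusted p = 0.08 and 0.079) and under upper-quartile scaling (adjusted p = 0.061), and the Grass call without either Cat library (adjusted p = 0.065 each). Lgals9 (galectin 9), a lectin that binds immune cell receptors, had −0.44, −0.39 and −0.46 (each SE 0.15) and was not called by limma, while DESeq2 called it with HDM and Cat (adjusted p = 0.032 and 0.033).

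The untreated libraries lay farther apart over the effectors than over all genes. The size of the gap between untreated 1 and untreated 2 had a median of 0.241 on the log2 scale over the 44 effectors and 0.064 over all genes tested. The gap was past its 95% counting error (1.96 times the Poisson error of its reads) in 36 effectors, against 22.4% of all genes, and untreated 2 was the higher in 35 of these, against 14.8% of all genes. The median ratio of the higher to the lower untreated value was 1.18. In the HDM pair the median size was 0.108, against 0.047 over all genes, and HDM 1 was the higher in 40 of 44, against 54.3% of all genes. The Grass and Cat pairs were about as close for effectors (0.058 and 0.049) as for all genes (0.048 and 0.049), with Grass 2 the higher in 29 of 44 (47.4% of all genes) and Cat 1 in 32 of 44 (51.7%).

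The gap was widest in Mx1, where untreated 2 was lower by 0.55, and in Ifitm6 (0.50) and Ifi44 (0.46), where it was higher. Mx1 and Ifitm6 had 28 to 43 reads in these libraries, and their gaps were within counting error. It was narrowest in Ifitm2, Pnpt1 and Slfn8, whose untreated libraries were level within 0.01. By class, the median gap was smallest in the RNA-binding effectors (0.119) and the TRIM ligases and nuclear body proteins (0.181) and largest in the IFIT family (0.41). Within the IFIT family Ifit1 and Ifit2 had the same gap (0.41). Limma called Ifit1 lower with every extract and Ifit2 with none, while DESeq2 called Ifit2 with Grass (adjusted p = 0.047). Over all tested effectors the called ones had smaller median gaps than the others. These were 0.2 against 0.31 with HDM, 0.21 against 0.31 with Grass and 0.2 against 0.28 with Cat. Their median log2 fold changes were −0.41 against −0.26, −0.4 against −0.29 and −0.37 against −0.34. The gap enters the SE, so calls and gaps are not independent.

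Set against each untreated library alone, effectors were lower in both cases. Against untreated 1 the median log2 difference was −0.25, −0.24 and −0.24 in the order HDM, Grass and Cat, and 41, 42 and 42 of 44 were lower, against 58.6%, 58.9% and 57.9% of all genes. Against untreated 2 it was −0.46 with each extract, and 41, 43 and 44 were lower, against 61.2%, 61.0% and 59.8% of all genes. The same medians over all genes ran from −0.05 to −0.02. The fold change was larger than the gap in 35 effectors with HDM, 35 with Grass and 36 with Cat. The same count over all genes is not given here, so nothing is read from these numbers.

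**Figure D4:**
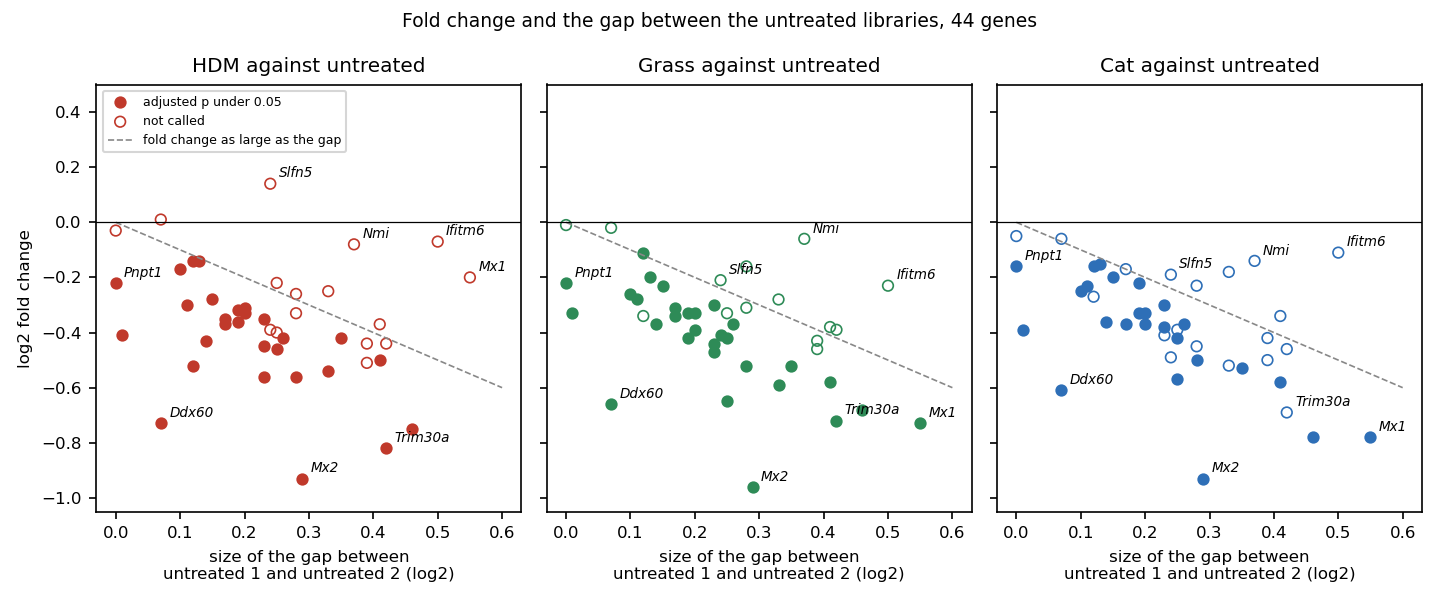
Log2 fold change against untreated (y axis) and size of the log2 gap between the untreated libraries (x axis) for the 44 effectors, with 1 panel per extract, filled points for an adjusted p under 0.05, open points for genes not called, and a dashed line where both are equal in size. Ddx60 and Pnpt1 changed with a small gap, Trim30a and Mx1 lie far right, and Slfn5 lies above 0 with HDM only.

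Between extracts no effector was called. Limma and edgeR each called 0 of 44 in every pair, and DESeq2 called 0. Between Grass and Cat, DESeq2 gave no adjusted p for Ddx60, Ifi27l2a, Ifi44, Ifitm6, Mx1 and Mx2. By limma, 1.69% of all genes were higher and 0.62% lower with HDM than with Grass. The shares were 2.94% and 4.82% with HDM than with Cat, and 3.58% and 8.23% with Grass than with Cat. At an unadjusted limma p under 0.05 there were 3 higher and 0 lower with HDM than with Grass, 4 and 1 with HDM than with Cat, and 0 and 1 with Grass than with Cat. Of all genes 7.96% and 5.6%, 7.76% and 12.3%, and 8.82% and 15.9% passed that threshold, so these counts of 44 are near or below the background. Slfn5 differed most in p, with 0.35 between HDM and Grass (SE 0.10, adjusted p = 0.15) and 0.33 between HDM and Cat (SE 0.10, adjusted p = 0.10). Leaving out either untreated library, which enters these pairs only through the shared spread, brought both under the threshold (adjusted p = 0.002 to 0.0036). Without Grass 2 the Slfn5 difference was called in both pairs (0.48 and 0.33, adjusted p = 0.0095 and 0.0087) and without Grass 1 between HDM and Cat (0.33, adjusted p = 0.0089), and without HDM 1 Lgals3bp was called lower with HDM than with Cat (−0.31, SE 0.08, adjusted p = 0.025). Leaving out either untreated library also called Samd9l higher with HDM than with Grass (0.19, SE 0.04, adjusted p = 0.00098 and 0.0011) and than with Cat (0.11, SE 0.04, adjusted p = 0.043 and 0.045), and Daxx lower with Grass than with Cat (−0.11, SE 0.04, adjusted p = 0.029 and 0.03).

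Effectors that lie next to each other in the RefSeq gene order are given side by side, since they share a locus. On chromosome 16 Parp14, Dtx3l and Parp9 had log2 fold changes of −0.39, −0.31 and −0.40 with HDM, −0.41, −0.33 and −0.33 with Grass, and −0.49, −0.33 and −0.39 with Cat. On chromosome 11 Slfn5, Slfn9, Slfn8 and Slfn2 had 0.14, −0.26, −0.41 and −0.33 with HDM, −0.21, −0.16, −0.33 and −0.31 with Grass, and −0.19, −0.23, −0.39 and −0.45 with Cat. On chromosome 7 Ifitm2, Ifitm3 and Ifitm6 had −0.03, −0.44 and −0.07 with HDM, −0.01, −0.43 and −0.23 with Grass, and −0.05, −0.42 and −0.11 with Cat, with Ifitm1 among them near 0 reads. The difference between neighbours was not tested. The 14 effectors whose promoter held the core had a median of −0.39 with HDM, −0.36 with Grass and −0.40 with Cat, of which 8, 9 and 6 were called lower. The 22 tested effectors whose promoter did not hold it had −0.32, −0.33 and −0.34, and 15 were called lower with each extract. The promoters printed above show both kinds: Trim25 without the core was called with every extract, and Ifitm2 with it was called with none. Ifitm3 and Bst2 both hold 2 copies, and limma called only Bst2, while DESeq2 also called Ifitm3 with HDM and Grass.

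Upstream of the effectors, Ifnb1 (interferon beta) had 2 to 7 reads per library, below the level tested. Of 15 tested genes for receptors, kinases and transcription factors of interferon signalling, 5 fell and 2 rose with HDM, 6 fell and 1 rose with Grass, and 5 fell and 0 rose with Cat. As shares of 15 these counts are near those of all genes for HDM and Grass (21.9% and 25.4% lower, 9.22% and 10.4% higher), and nothing is read from them. Ifngr1, a receptor chain for interferon gamma, fell with HDM (−0.28, SE 0.04, adjusted p = 2.4e-05), Grass (−0.38, SE 0.04, adjusted p = 2e-07) and Cat (−0.13, SE 0.04, adjusted p = 0.035). Irf1, a transcription factor of early interferon responses, rose with HDM (0.24, SE 0.05, adjusted p = 0.00045) and was not called with Grass (0.07) or Cat (−0.12). That list's median was −0.07, −0.15 and −0.13.

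The authors' deposited tables of changed genes hold 4 effectors for HDM, 5 for Grass and 4 for Cat. The smallest fold in the authors' deposited tables is 1.5 for HDM and Grass and 1.51 for Cat, whereas the calls above have no fold minimum, so the counts are not comparable. Mx2, Trim30a, Ifi44 and Ddx60 are in the authors' deposited table for HDM with signed linear folds of −1.84, −1.73, −1.66 and −1.63. The authors' deposited table for Grass gives −1.93 for Mx2, −1.62 for Trim30a, −1.58 for Ifi44, −1.55 for Ddx60 and −1.52 for Samd9l. In the authors' deposited table for Cat these are −1.91 for Mx2, −1.71 for Ifi44, −1.60 for Trim30a and −1.51 for Ddx60. The authors' deposited tables list 0.597%, 0.56% and 0.203% of the 16242 rows with a read as lower with HDM, Grass and Cat. As higher, the authors' deposited tables list 0.708%, 0.813% and 0.123% of these rows and 0 effectors.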

How the data were processed

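RNA from 8 DC2.4 libraries, 2 per group, was enriched for mRNA and made into stranded libraries (KAPA kit), per the labels' protocols. Bowtie2 2.1.0, RSEM 1.2.15, edgeR and the mouse build mm9 are named, with no role or order, per the submitters' processing notes. Which annotation and strand setting the counting used is not given in the sources used here, so overlapping or antisense genes and near-identical copies may share reads.

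The authors deposited a table under the name of raw counts, but it holds a scaled signal. In each library every value was whole reads times a single factor (100% of values, within 1e-6 reads), and columns summed to 975215 to 1047501. The authors' 3 tables of changed genes add a deposited fold score (signed, linear), a deposited p-value and an FDR.

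Here log2 of the value plus 0.1 was tested with limma 3.58.1 (R 4.3.3, trend, robust) over genes with a value of at least 0.5 in at least 2 of 8 libraries (11455 of 24054 rows). All 8 libraries were in 1 fit with 4 residual degrees of freedom, and p-values had Benjamini-Hochberg adjustment over all genes in each comparison. Log2 fold changes understate those of low genes. Calls were made at an adjusted p under 0.05. All adjusted p-values are limma's unless another tool is named. The script was tested on simulated data. Alternatives were other scalings, pseudocounts and filters, edgeR 4.0.16 and DESeq2 1.42.0 on recovered reads, a replicate block and leaving out each library. Running edgeR with TMM factors was chosen after the data were seen.

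Effectors, classes and lists were chosen with earlier results of these data known. Library values are given for 2 genes per class with the smallest F-test p over the comparisons with untreated, for the 3 widest and 3 narrowest untreated gaps, and for genes said to be chosen after their values were seen. All other effectors are named with fold changes. Counting errors cover sampling of reads only.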

Additional observations from a re-analysis of the deposited data

How the results depend on the processing

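Over scalings, pseudocounts, filters, tools and the block, 23 to 33 effectors were lower with HDM (28 in the reported fit), 27 to 34 with Grass (30) and 23 to 28 with Cat (25). Leaving out 1 library gave 18 to 39 with HDM, 24 to 39 with Grass and 12 to 39 with Cat. No share of all genes stands beside these leave-out counts, the counts by pseudocount, filter, tool and block, or the kept calls below. Nothing particular to the effectors is read from them. Calls kept under every alternative that gave an adjusted p numbered 17 of 28, 21 of 30 and 12 of 25. Those kept with Cat include Mx2, Ddx60 and Ifi44, for which DESeq2 gave no adjusted p in that comparison. Effectors higher with HDM went from 0 to 1 at most on leaving out 1 library. Between extracts the reported counts were 0, and leaving out 1 library gave 0 to 2 higher with HDM than with Grass, 0 to 2 higher and 0 to 1 lower with HDM than with Cat, and 0 to 1 lower with Grass than with Cat. The count of effectors lower in all 6 allergen libraries was 37 (25.2% of all genes), and 34 under TMM, DESeq2 and upper-quartile scaling (17.2%, 17.3% and 11.5% of all genes). No called effector reversed. Among results for single genes 2256 stayed on their side of the threshold, 113 lost and 100 gained a call (36 of those gained without untreated 1 and 19 by DESeq2), and 25 uncalled ones changed sign, all in Ifitm2, Ifitm6, Mx1, Nmi and Ifi30. DESeq2 gave no adjusted p for some low effectors, which were left out of these counts.

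Over all genes, the correlation of replicate differences between groups was −0.0797 to 0.128 over the 6 pairs of groups, and over the 44 effectors −0.23 to 0.42 (HDM with Cat), so the numbers were not treated as pairs. With a replicate block 27, 29 and 25 effectors were lower with HDM, Grass and Cat, and 1 was higher with HDM than with Grass and 1 with HDM than with Cat, Slfn5 in both (adjusted p = 0.00022 and 0.00019). The block ended the calls of Rsad2 and Trim30a with HDM and Grass, Rtp4 with HDM, Parp14 with Grass and Eif2ak2 with Cat (adjusted p = 0.052 to 0.10), and added calls of Ifi35 with HDM and Grass, Lgals9 with HDM and Slfn5 with Grass and Cat.

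The design has 2 libraries per group, and the same untreated pair, the widest over the effectors (median gap 0.241), serves every comparison with untreated. Ifitm1 and Ifnb1 were too shallow to test, and Mx1 and Ifitm6 had 28 to 43 reads in the untreated libraries. Scalings shifted all genes by at most 0.08 on the log2 scale.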
